A study of Mus musculus with 11 samples.

Results

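The integrated stress response and the unfolded protein response were examined in KP1, an *Rb/p53* mutant mouse cell line of small cell lung cancer (SCLC) assigned to the SCLC-A subtype and grown in culture. The gene group held 33 genes of 35017 with transcripts in the files. The rule took genes of the ATF4, serine synthesis, XBP1 and ATF6 arms by name, without a threshold on any measured value, although earlier results of these data were known when the list was made. Bulk RNA sequencing covered 2 control libraries, labelled untreated and numbered 2 and 3, and 3 irradiated libraries, numbered 1 to 3, whose cells had received 5 Gy. The pellets were harvested at 24 h. KP1 is a single cell line, and the labels do not say whether the libraries of a group came from separate cultures, so p values measure the spread between these samples. A bulk library also cannot tell a change in every cell from a change in the share of cells that express a gene.

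Cells that run short of amino acids, or that accumulate misfolded proteins in the endoplasmic reticulum (ER), slow translation by phosphorylating the initiation factor eIF2α. Translation of the transcription factor ATF4 then increases, and ATF4 switches on genes for amino acid synthesis and uptake together with regulators such as CHOP, the product of *Ddit3*. Misfolded ER proteins also activate IRE1, which removes a short intron from *Xbp1* mRNA, and ATF6, which is cut and moves to the nucleus. Both raise chaperones and the machinery of ER-associated degradation (ERAD). SCLC cells of the SCLC-A subtype are neuroendocrine and carry a secretory program.

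The files held Salmon's estimated reads and TPM (an abundance per transcript length, scaled to the same total in each library). Estimated reads summed to 21185956 to 31036317 per library. Differences between groups were computed from reads per gene as CPM (reads per 1000000 of a library, after TMM normalization) with edgeR's quasi-likelihood test, adjusted by the Benjamini-Hochberg method over 14091 genes, and a gene was called at an adjusted p under 0.05. All 7 neuroendocrine markers were detected, with a summed level of 2570 to 2700 TPM in control and 2520 to 2680 TPM in irradiated libraries. The 3 leukocyte markers summed to 4.55 to 6.78 TPM in control and 1.13 to 1.62 TPM in irradiated libraries, with *Csf1r* at 0 or 1 reads. Of the 3 fibroblast markers, *Col1a1* and *Col1a2* had at most 33 reads in a library, while *Pdgfra* lay at 36.6 to 56.7 TPM. The endothelial markers summed to at most 1.22 TPM. The groups differed in the length of the RNA they sampled: averaged over reads, transcripts were 5463 and 4729 bases long in control and 3715, 3625 and 3998 bases long in irradiated libraries. Values with an offset for transcript length, which removes any trend with length whether technical or biological, are therefore given beside the main values.

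ATF4 acts with C/EBP proteins through the C/EBP-ATF response element (CARE, TGATGNAA), and the window from 250 bases before to 50 bases after the transcription start held this motif on either strand in 6 of the 30 members that had a RefSeq promoter, against 4.51% of 27025 gene symbols. The ER stress element (ERSE, CCAAT and CCACG with 9 bases between them) was found in 1 member against 0.137%, and its variant ERSE-II (ATTGG and CCACG with 1 base between them) in 1 member against 0.0444%. The UPRE core (TGACGTG) was found in 0 members against 2.22%. *Atf6*, *Manf* and *Slc7a5* had no entry in the promoter table. The windows that hold a motif are shown because ATF4 and the ER stress factors are known to act through these elements. They are from GRCm38.p6, run 5′ to 3′ on the strand of the gene, and have the motif in capitals, which stands in the opposite orientation in *Chac1*, *Herpud1* (CARE), *Nupr1*, *Trib3* and *Creld2*. A match of letters is a description and not a measured binding site.
*Asns* CARE, chr6:7693210-7693252, minus strand: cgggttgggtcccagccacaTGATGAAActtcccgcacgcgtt
*Pycr1* CARE, chr11:120643824-120643871, minus strand: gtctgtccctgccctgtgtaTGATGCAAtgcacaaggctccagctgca
*Nupr1* CARE, chr7:126625553-126625600, minus strand: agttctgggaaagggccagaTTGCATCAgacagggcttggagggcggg
*Chac1* CARE, chr2:119351029-119351076, plus strand: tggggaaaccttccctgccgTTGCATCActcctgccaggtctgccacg
*Trib3* CARE, chr2:152344039-152344066, minus strand: agcagcagattagctcaggtTTACATCA
*Herpud1* CARE, chr8:94386297-94386344, plus strand: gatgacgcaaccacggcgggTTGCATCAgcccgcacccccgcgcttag
*Herpud1* ERSE-II, chr8:94386357-94386407, plus strand: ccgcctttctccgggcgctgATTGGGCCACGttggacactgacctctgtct
*Creld2* ERSE, chr15:88819500-88819558, plus strand: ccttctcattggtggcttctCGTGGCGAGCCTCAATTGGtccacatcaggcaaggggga
*Herpud1* was the only member with both a CARE and an ER stress element in its window. Of the 6 genes with a CARE, only *Trib3* was called higher in irradiated cells, where 12.7% of all genes tested were. In *Trib3* the motif lay just past the RefSeq transcription start but upstream of the start in the gene annotation.

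In irradiated cells 4 of 10 ATF4 regulators and effectors, a group that includes *Atf4*, were called higher. So were 3 of 7 genes of the ATF6 arm and *Xbp1*. Lower calls were limited to 1 amino acid transporter gene, and the enzymes of serine synthesis did not pass the test. Of the 33 members, 8 were called higher (*Ddit3*, *Trib3*, *Cebpb*, *Ppp1r15a*, *Xbp1*, *Sdf2l1*, *Manf* and *Selenos*), 1 was called lower (*Slc7a1*) and 24 were not called. Among all genes tested, 12.7% were called higher and 13% lower. The median log2 fold change was 0.41 over the members and 0.02 over all genes. With the length offset, 3 members were called higher (*Eif2ak3*, *Ppp1r15a* and *Selenos*; 3.82% of all genes) and 0 lower (3.43% of all genes), with a median of 0.17 against 0.04, and at an unadjusted p under 0.05 the offset left 10 higher and 2 lower (16.6% and 13.7% of all genes). Without control replicate 2, 0 members were called by edgeR (0.664% of all genes higher and 1.23% lower), with 8 higher and 1 lower at an unadjusted p under 0.05 (14.1% and 12.1% of all genes). Without irradiated replicate 1, 5 members were called higher and 1 lower (6.04% and 6.57% of all genes), and without irradiated replicate 2, 3 were called higher and 1 lower (4.93% and 6.01% of all genes). *Cebpb*, *Sdf2l1*, *Selenos* and *Slc7a1* kept their call when any library other than control replicate 2 was left out. *Ddit3*, *Trib3* and *Ppp1r15a* lost it without irradiated replicate 1 (adjusted p = 0.0925, 0.0812 and 0.0606 from edgeR) and without irradiated replicate 2 (adjusted p = 0.137, 0.0679 and 0.0562 from edgeR). *Xbp1* and *Manf* lost it without control replicate 3 (adjusted p = 0.092 and 0.0631 from edgeR) and without irradiated replicate 2 (adjusted p = 0.0932 and 0.0551 from edgeR), and *Xbp1* also without irradiated replicate 3 (adjusted p = 0.0557 from edgeR). At the thresholds of the study (log2 fold change above 1.5 or below −1.5), applied here to the edgeR fit, 2 members remained higher, *Cebpb* and *Selenos*, and 0 lower. Of all genes, 1.65% and 1.9% did so. The study applied its thresholds to DESeq2 with another p correction. With DESeq2 run here, *Cebpb* stood at 1.54 and *Selenos* at 1.49, below the threshold.

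**Figure D1:**
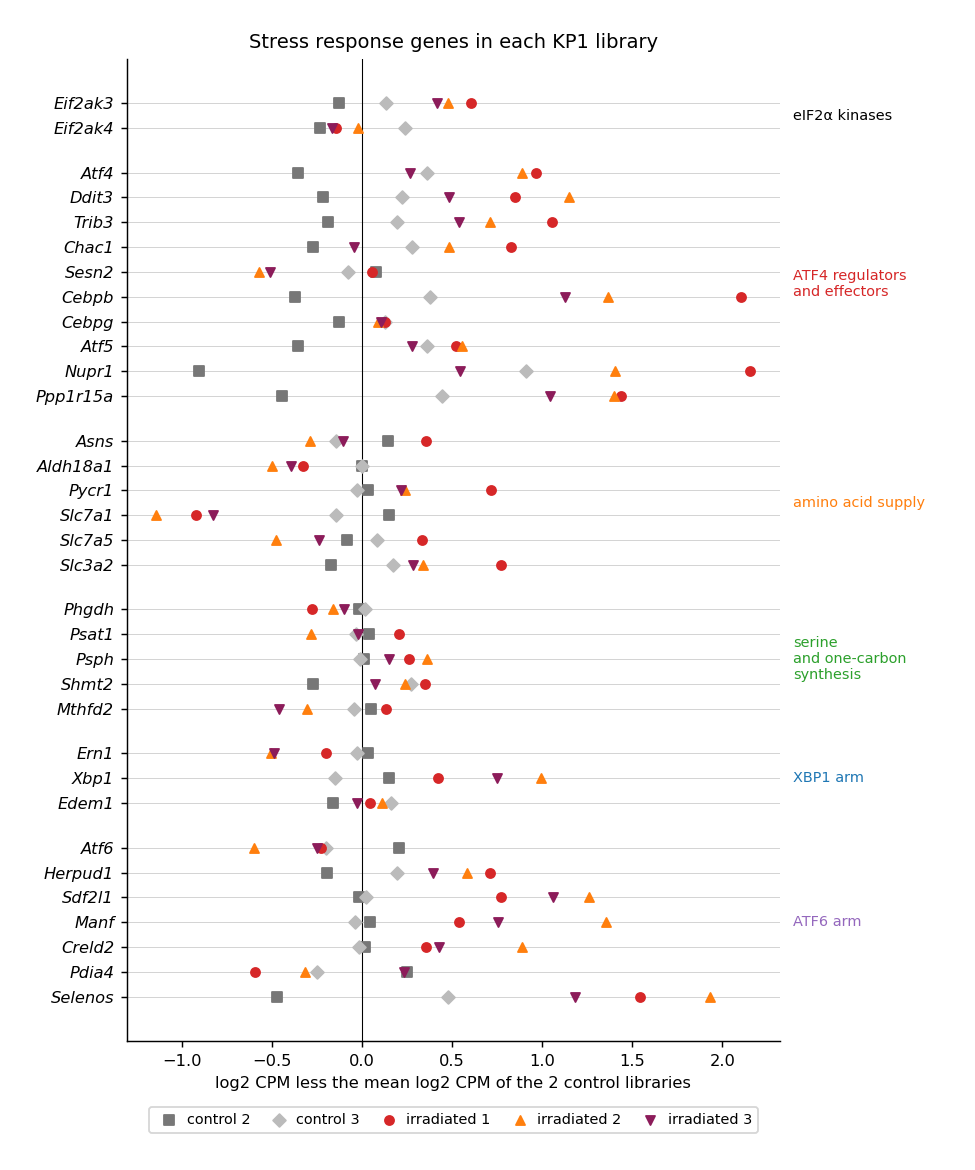
Level of each member in each library as log2 CPM less the mean log2 CPM of the 2 control libraries (x axis), with 1 row per gene, ordered by arm; grey symbols are control and coloured symbols irradiated libraries. All 3 irradiated libraries lay above both controls in 14 members and below both in 5.

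The irradiated libraries lay entirely above both controls in 14 members and entirely below in 5, where 30.1% and 29.3% of all genes did so. After adjustment for transcript length they lay above in 10 members and below in 3, where 3821 and 3043 of the 14091 genes tested did so. Members tended to be short: their transcripts had a median length of 1917 bases, and all genes tested 2502 bases. Of the 23 members shorter than 2502 bases, 8 were called higher, where 23.4% of all shorter genes were, and their median log2 fold change was 0.55 against 0.38. Of the 10 longer members, 0 were called higher and 1 lower, where 22.8% of all longer genes were called lower, and their median was −0.22 against −0.29.

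**Figure D2:**
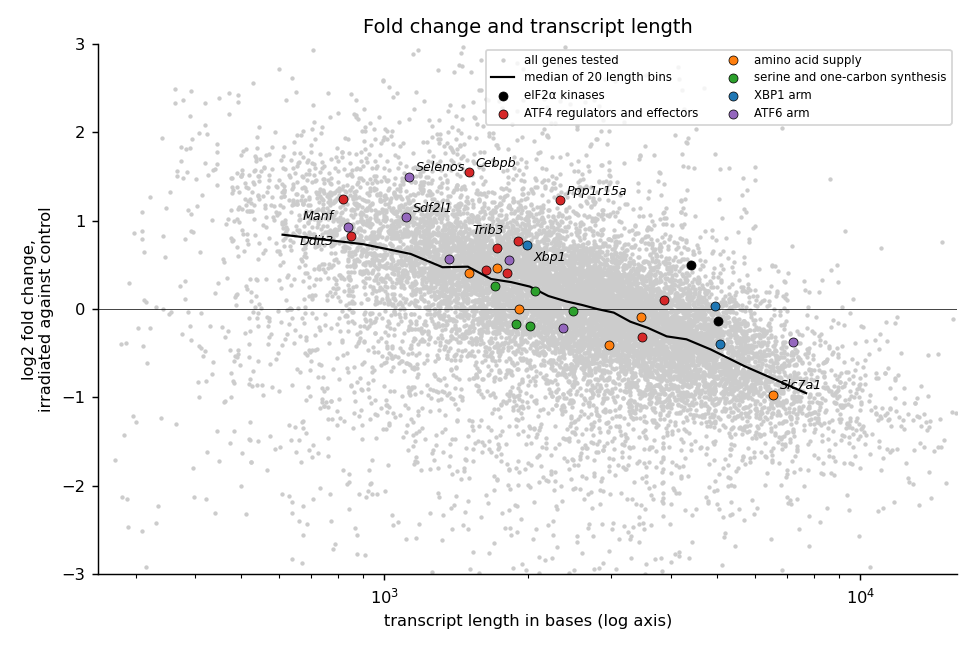
Log2 fold change, irradiated against control, of each gene tested (grey) and of the 33 members (coloured by arm) against transcript length on a log axis, with the line giving the median of all genes in 20 length bins; 166 of the 14091 genes lie outside the plotted range. The median line falls with length, and *Ppp1r15a*, *Cebpb*, *Eif2ak3* and *Selenos* stand furthest above it among the members.

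All genes tested were divided by transcript length into deciles. Within its own decile, *Ppp1r15a* ranked at percentile 96.5 of log2 fold change, *Cebpb* at 95.5, *Eif2ak3* at 95.2 and *Selenos* at 94.4. *Trib3*, *Xbp1* and *Sdf2l1* followed at 85.5, 84.0 and 82.8. *Manf*, *Ddit3* and *Slc7a1*, which were called in the main fit, ranked at 58.0, 53.0 and 34.8 among genes of their own length.

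The stress sensor genes *Eif2ak3*, *Eif2ak4* and *Ern1* stood at 11.8, 10.4 and 12.3 TPM in control cells, and *Atf6* at 29.4 TPM. None of the 4 was called in the main fit. *Eif2ak3* encodes PERK, the ER membrane kinase of eIF2α. It had 24.0 and 28.7 CPM in control replicates 2 and 3 and 39.9, 36.5 and 35.0 CPM in irradiated replicates 1, 2 and 3. All irradiated values thus lay above both controls, with a log2 fold change of 0.50 ± 0.17 (SE, adjusted p = 0.0591 from edgeR). With the length offset the difference was 0.92 ± 0.18 (adjusted p = 0.0305 from edgeR), and with DESeq2 the adjusted p was 0.036. *Eif2ak4* encodes GCN2, the eIF2α kinase that senses uncharged tRNA. Its irradiated values of 23.9, 26.1 and 23.6 CPM lay between the control values of 22.5 and 31.2 CPM, with a log2 fold change of −0.13 (adjusted p = 0.647 from edgeR) that turned to 0.39 with the length offset.

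*Ern1* encodes IRE1α and had 32.7 and 31.3 CPM in control and 27.8, 22.5 and 22.8 CPM in irradiated libraries. The difference of −0.40 ± 0.17 did not pass the test (adjusted p = 0.12 from edgeR) and was 0.15 with the length offset. *Atf6*, with the longest transcript of the members at 7238 bases, had 126 and 95.3 CPM in control and 93.5, 72.1 and 91.9 CPM in irradiated libraries. Its log2 fold change of −0.37 (adjusted p = 0.168 from edgeR) turned to 0.45 with the length offset (adjusted p = 0.0768 from edgeR). All 4 sensors had long transcripts, with a median of 5049 bases, and with the offset all 4 differences lay above 0, with a median of 0.42.

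Of the 10 ATF4 regulators and effectors, with *Atf4* among them, 4 were called higher and 0 lower (12.7% and 13% of all genes). In 9 the log2 fold change lay above 0 (51.0% of all genes), with a median of 0.73 (0.40 with the length offset). *Atf4* itself (chr15:80255184-80257541, GRCm38) had 100 and 164 CPM in control and 250, 237 and 154 CPM in irradiated libraries. Irradiated replicate 3 lay below control replicate 3, so the groups overlapped, and the log2 fold change of 0.69 ± 0.27 did not pass the test (adjusted p = 0.0885 from edgeR, 0.0401 from DESeq2). With the length offset it was 0.40 (adjusted p = 0.262 from edgeR). ATF4 is controlled in good part at translation, which RNA levels do not show.

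*Cebpb* encodes C/EBPβ, a dimer partner of ATF4, and had the largest log2 fold change of the members in this fit. The gene, at chr2:167688915-167690418, had 11.7 and 19.7 CPM in control and 65.2, 39.1 and 33.1 CPM in irradiated libraries. All irradiated values lay above both controls, and the level was 2.92-fold higher (log2 fold change 1.55 ± 0.34, 95% confidence interval 0.77 to 2.32, adjusted p = 0.0157 from edgeR). Under the offset the difference was 1.16 ± 0.31 (adjusted p = 0.0551 from edgeR). *Cebpb* shares 312 of its 1504 exonic bases with *Tmem189* on the opposite strand, which had 729 and 863 reads in control and 1198, 1023 and 1120 in irradiated libraries, and the sources used here do not say whether reads were assigned by strand.

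*Ppp1r15a* encodes GADD34, which directs a phosphatase to eIF2α and so restores translation. The gene (chr7:45522916-45526268) rose from 5.99 and 11.1 CPM in control to 22.1, 21.5 and 16.8 CPM in irradiated libraries. The groups did not overlap, and the log2 fold change of 1.23 ± 0.30 (adjusted p = 0.0213 from edgeR) was close to the value with the length offset, 1.16 ± 0.26 (adjusted p = 0.0416 from edgeR). It was, by level per length, the lowest member in control cells at 7.74 ± 3.43 TPM (SD, n = 2).

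*Ddit3*, at chr10:127290774-127296288, encodes the transcription factor CHOP. It had 10.4 and 14.1 CPM in control and 21.8, 26.8 and 16.9 CPM in irradiated libraries. The groups were apart and the log2 fold change was 0.83 ± 0.25 (adjusted p = 0.0445 from edgeR), but with the length offset it was 0.21 (adjusted p = 0.448 from edgeR). *Trib3*, at chr2:152337422-152344032, encodes a pseudokinase that is induced by ATF4 and CHOP and dampens both. It had 21 and 27.4 CPM in control and 49.8, 39.3 and 34.8 CPM in irradiated libraries, again with no overlap. Its log2 fold change was 0.77 ± 0.21 (adjusted p = 0.0318 from edgeR), or 0.54 with the length offset (adjusted p = 0.0995 from edgeR).

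The other regulators were not called. *Nupr1*, a small stress-induced chromatin protein, varied most: it had 4.17 and 14.7 CPM in control and 34.9, 20.7 and 11.4 CPM in irradiated libraries. Irradiated replicate 3 thus lay below control replicate 3, and the log2 fold change of 1.24 had a confidence interval of −0.08 to 2.56, with 0.70 under the length offset. *Chac1*, an enzyme that degrades glutathione, *Atf5*, a relative of ATF4, and *Cebpg*, a partner of ATF4, had log2 fold changes of 0.44, 0.41 and 0.10 with overlapping groups. *Sesn2*, a leucine sensor upstream of mTORC1, had a value of −0.32.

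**Figure D3:**
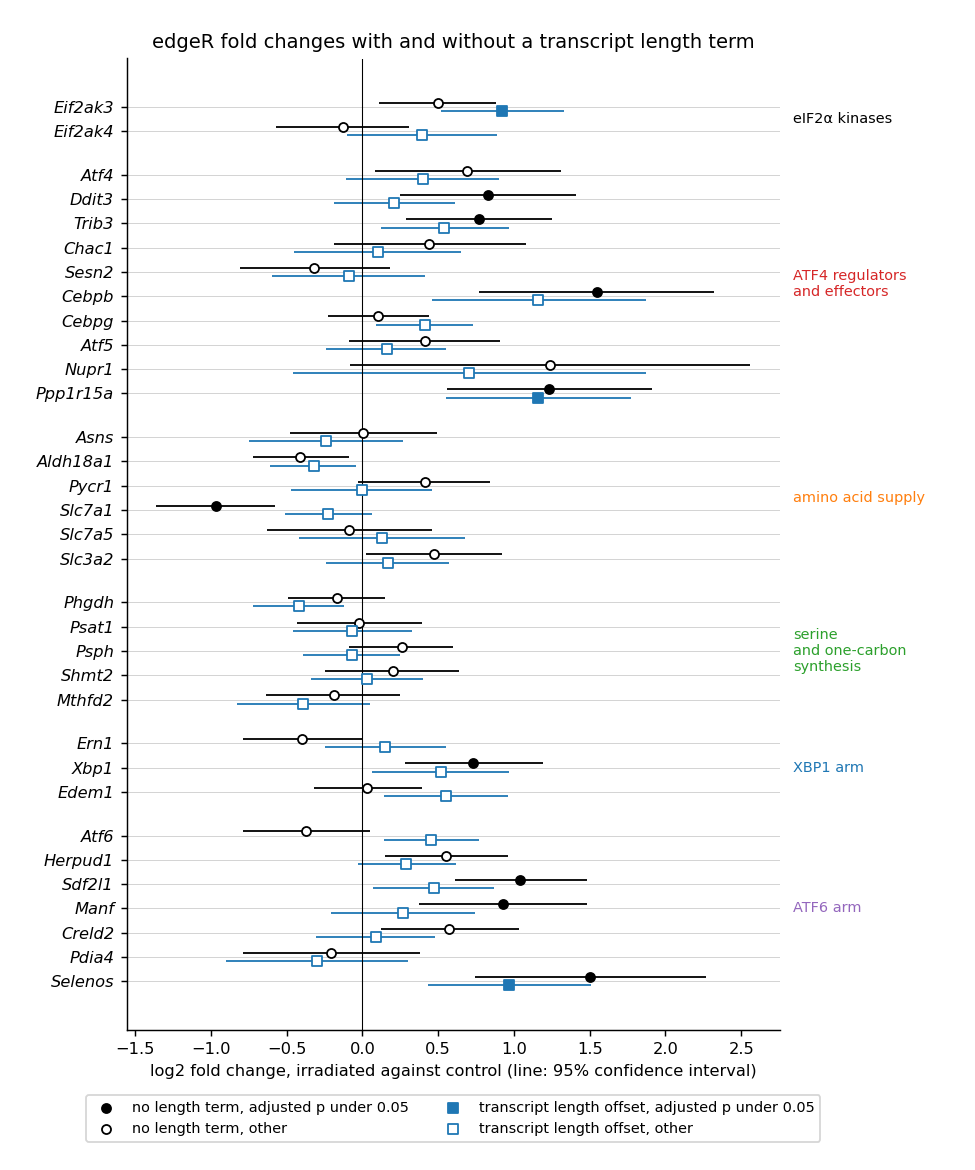
Log2 fold change of each member, irradiated against control, from edgeR without a length term (black circles) and with the transcript length offset (blue squares); lines are 95% confidence intervals and filled symbols have an adjusted p under 0.05. The offset moved the long sensor genes *Eif2ak3*, *Eif2ak4*, *Ern1* and *Atf6* up and short genes such as *Ddit3*, *Sdf2l1* and *Manf* down.

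The genes of amino acid supply did not move as 1 group: of 6, 0 were called higher and 1 lower (12.7% and 13% of all genes). Their median log2 fold change was −0.04. *Slc7a1* (chr5:148327410-148399904) encodes the transporter CAT1 for arginine and lysine, and its mRNA was about as abundant in control cells as that of the serine enzyme gene *Phgdh*, at 148 ± 31.6 TPM and 146 ± 6.04 TPM (SD, n = 2). It had 536 and 437 CPM in control and 255, 219 and 272 CPM in irradiated libraries. The irradiated values lay far below both controls, and the level fell by 0.97 on the log2 scale (SE 0.17, adjusted p = 0.00969 from edgeR). *Slc7a1* has a transcript of 6551 bases, and with the length offset the difference was −0.23 (adjusted p = 0.258 from edgeR).

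*Slc7a5* and *Slc3a2* encode the light and heavy chains of the transporter LAT1. Their log2 fold changes were −0.09 and 0.47, and neither was called (adjusted p = 0.812 and 0.111 from edgeR). *Asns*, which encodes asparagine synthetase and is a standard ATF4 target, had 241 and 197 CPM in control and 278, 178 and 202 CPM in irradiated libraries. The groups overlapped and the log2 fold change was 0.0016, with a confidence interval of −0.48 to 0.49. *Aldh18a1* and *Pycr1*, which act in proline synthesis, had values of −0.41 (adjusted p = 0.0606 from edgeR, irradiated below both controls) and 0.41 (adjusted p = 0.144 from edgeR, irradiated above both controls).

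Of the 5 genes of serine and one-carbon synthesis, 0 were called higher or lower (12.7% and 13% of all genes). All but *Psph* were among the most abundant members. In control cells *Psat1* stood at 300 ± 21.2 TPM, *Shmt2* at 251 ± 63.4 TPM, *Mthfd2* at 221 ± 8.66 TPM and *Phgdh* at 146 ± 6.04 TPM (SD, n = 2), with *Psph* lower at 46.4 ± 1.55 TPM. *Psat1*, *Shmt2* and *Asns* (249 ± 13.2 TPM) led the order of levels, and neighbours among these 3 had overlapping control values. Only 5 of the steps from 1 member to the next in that order separated the control values of both genes.

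*Phgdh* encodes the enzyme of the committed step from glycolysis to serine. It had 126 and 129 CPM in control and 105, 114 and 119 CPM in irradiated libraries, below both controls, with a log2 fold change of −0.17 ± 0.14 (adjusted p = 0.38 from edgeR). The confidence interval ran from −0.49 to 0.15. With the length offset the *Phgdh* difference was larger, at −0.42 ± 0.13 with an interval of −0.72 to −0.12, and was not called (adjusted p = 0.0838 from edgeR). *Psat1*, *Psph*, *Shmt2* and *Mthfd2* had values of −0.02, 0.26, 0.20 and −0.19 (adjusted p = 0.939, 0.229, 0.482 and 0.492 from edgeR). Under the length offset *Mthfd2* stood at −0.39 (adjusted p = 0.208 from edgeR), and the median of the 5 genes was −0.07.

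In the XBP1 arm, *Xbp1* was called higher. The gene (chr11:5520659-5525893) had 121 and 98.4 CPM in control and 146, 217 and 183 CPM in irradiated libraries, with no overlap and the highest value in irradiated replicate 2. Its log2 fold change was 0.73 ± 0.20 (adjusted p = 0.0313 from edgeR), or 0.52 with the length offset (adjusted p = 0.127 from edgeR). *Edem1*, which encodes a lectin-like protein of ERAD and is a standard XBP1 target, had 52.1 and 65.1 CPM in control and 60.1, 62.9 and 57.0 CPM in irradiated libraries, a log2 fold change of 0.03. *Edem1* has a transcript of 4954 bases, and with the length offset its value was 0.55 (adjusted p = 0.0895 from edgeR).

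IRE1 removes 26 bases from *Xbp1* mRNA, and the deposited values could not show whether this took place. Of the 4 annotated *Xbp1* transcripts, 3 contained these bases, the retained-intron transcript *Xbp1*-202 did not hold the pair of cleavage sites, and 0 had a gap of this length between exons, so the spliced mRNA had no transcript of its own. The intron is shown because it carries this limit: it lies at chr11:5524279-5524304 (GRCm38, plus strand) within the coding sequence, in exon 4 of the transcript *Xbp1*-201, and stands in capitals between its flanks.
*Xbp1* intron: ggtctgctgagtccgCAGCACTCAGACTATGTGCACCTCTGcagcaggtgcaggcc

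The ATF6 arm had the highest share of groups apart: in 5 of its 7 genes all irradiated libraries lay above both controls (30.1% of all genes). In this arm 3 genes were called higher and 0 lower (12.7% and 13% of all genes). The median log2 fold change was 0.57 (0.29 with the length offset). The arm's transcripts had a median length of 1366 bases, and 30.4% of all genes with 1023 to 1410 bases were called higher. *Sdf2l1* (chr16:17130138-17132383) encodes a cofactor of ER chaperones. It had 21.2 and 21.8 CPM in control and 36.7, 51.4 and 44.8 CPM in irradiated libraries. The controls were close together and all irradiated values lay well above them, a 2.06-fold difference (log2 fold change 1.04 ± 0.19, adjusted p = 0.0102 from edgeR). The length offset gave 0.47 (adjusted p = 0.118 from edgeR).

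*Manf*, at chr9:106838312-106891979, encodes a protein of the ER lumen that is also secreted. It had 52.7 and 49.7 CPM in control and 74.2, 131 and 86.2 CPM in irradiated libraries. Irradiated replicate 2 stood out above the others, and the log2 fold change was 0.93 ± 0.24 (adjusted p = 0.0282 from edgeR). The *Manf* difference depended on the kind of length offset. It was 0.27 with the transcript length offset (adjusted p = 0.416 from edgeR). With an offset for Salmon's effective length in each library it was 1.40 (adjusted p = 0.0141 from edgeR). *Selenos*, at chr7:66079649-66089405, encodes a selenoprotein of the ERAD complex. It had 6.41 and 12.4 CPM in control and 26, 34 and 20.2 CPM in irradiated libraries. The lowest irradiated value lay above the higher control, with a log2 fold change of 1.5 ± 0.33 (adjusted p = 0.0167 from edgeR) and, with the length offset, 0.97 ± 0.23 (adjusted p = 0.0473 from edgeR).

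*Herpud1*, an ERAD scaffold that carries both the CARE and the ERSE-II shown above, had 55.6 and 72.9 CPM in control and 104, 95.4 and 83.7 CPM in irradiated libraries. The groups were apart, and the log2 fold change of 0.55 ± 0.18 just missed the threshold (adjusted p = 0.0503 from edgeR, 0.0218 from DESeq2) and was 0.29 with the length offset (adjusted p = 0.203 from edgeR). *Creld2*, an ER protein with the ERSE shown above, had a value of 0.57 (adjusted p = 0.0655 from edgeR, 0.0418 from DESeq2), also with all irradiated libraries above both controls. Under the offset the *Creld2* groups overlapped, with a value of 0.09 (adjusted p = 0.77 from edgeR). *Pdia4*, a disulfide isomerase, had a value of −0.21 with overlapping groups.

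The arms differed in which irradiated library was highest. In the 10 ATF4 regulators, irradiated replicate 1 was the highest of the 3 in 8 genes and replicate 3 the lowest in 8, where all genes were divided evenly (highest in replicate 1 for 32.9% and lowest in replicate 3 for 34.0%). Their median log2 difference from the control mean was 0.90, 0.80 and 0.38 in irradiated replicates 1, 2 and 3, and 0.58, 0.43 and 0.07 after adjustment for transcript length. In the 10 genes of the XBP1 and ATF6 arms together, replicate 2 was the highest in 6, and the medians were 0.39, 0.73 and 0.41. After the length adjustment they lay closer together, at 0.31, 0.43 and 0.33, and irradiated replicate 2 was the library with the shortest mean transcript length. The 6 genes of amino acid supply were each higher in replicate 1 than in replicate 2, by a median of 0.45 on the log2 scale, with medians of 0.34, −0.39 and −0.17 from the control mean. These are descriptions of single libraries, in which genes are not independent of each other.

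**Figure D4:**
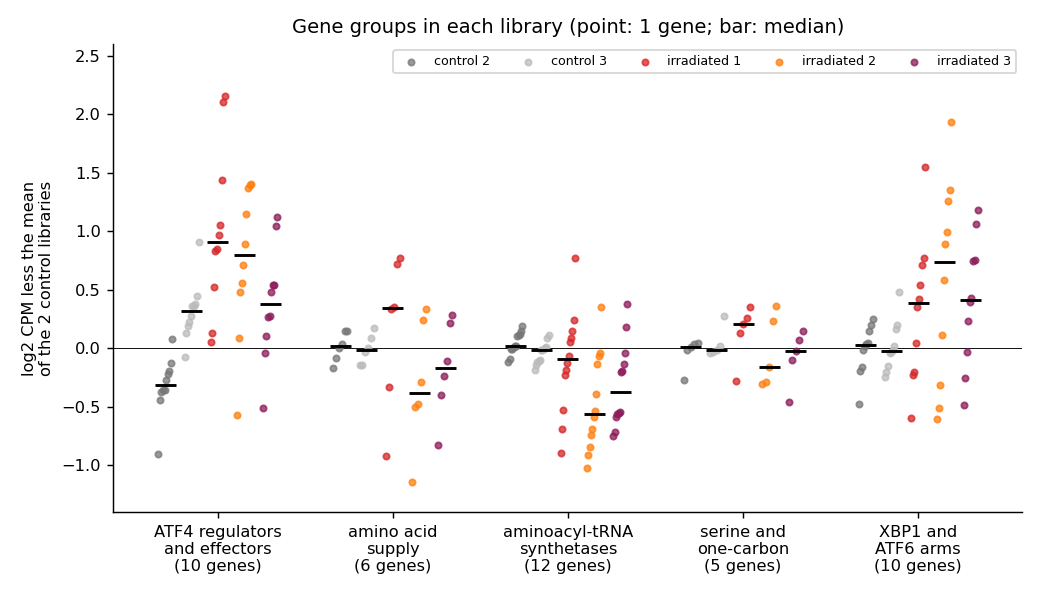
Log2 CPM less the mean of the 2 control libraries for 4 groups of members and the 12 aminoacyl-tRNA synthetases in each of the 5 libraries; points are genes and bars medians. The ATF4 regulators stand highest in irradiated replicates 1 and 2 and differ between the controls, and the XBP1 and ATF6 arms stand highest in irradiated replicate 2.

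The 2 control libraries also differed for the ATF4 regulators: control replicate 3 was higher than control replicate 2 in 9 of the 10 genes, by a median of 0.63 on the log2 scale, where 50.4% of all genes were higher in control replicate 3. The difference was 0.70 for *Atf4*, 0.74 for *Cebpb* and 1.80 for *Nupr1*. In the 7 genes of the ATF6 arm it was −0.03. Control replicate 3 was also the control with the shorter mean transcript length. Without control replicate 2, the values of *Cebpb*, *Ppp1r15a*, *Selenos* and *Sdf2l1* were 1.24, 0.88, 1.12 and 1.04 (adjusted p = 0.0893, 0.0927, 0.0772 and 0.0589 from edgeR), while *Atf4* and *Nupr1* stood at 0.41 and 0.62 (adjusted p = 0.374 and 0.464 from edgeR). Without control replicate 3 instead, *Atf4* and *Nupr1* stood at 1.11 and 2.44 and both passed the test (adjusted p = 0.0245 and 0.019 from edgeR).

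Other genes of these pathways, in 7 lists written from textbook knowledge, numbered 105, of which 104 were tested. Among these, 15 were called higher and 10 lower, against 12.7% and 13% of all genes, and the median log2 fold change was 0.09. With the length offset the counts were 5 and 2, and without control replicate 2, irradiated replicate 1 or irradiated replicate 2 they were 0 and 2 (*Aldh1l2* and *Mtr*), 6 and 5, and 2 and 6. The list not tested in full was that of serine, glycine and folate enzymes, where *Gldc* had 4 reads in irradiated replicate 1 and 0 elsewhere.

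ER chaperones and folding enzymes had the most genes called higher, 5 of 15, and 0 called lower (12.7% and 13% of all genes). In 13 the log2 fold change lay above 0 (51.0% of all genes), with a median of 0.43 (0.30 with the length offset). *Dnajb9*, a cochaperone of BiP, had 23.4 and 25.4 CPM in control and 38.9, 40.4 and 39.1 CPM in irradiated libraries, clear of both controls, with a log2 fold change of 0.70 (adjusted p = 0.0165 from edgeR) and, under the offset, 0.63 (adjusted p = 0.0377 from edgeR). *Ppib*, a prolyl isomerase with a short transcript, had 0.64 (adjusted p = 0.0242 from edgeR) and −0.00051 with the offset. *Hspa5* encodes BiP itself, the standard marker of this response, and had 348 and 354 CPM in control and 404, 527 and 530 CPM in irradiated libraries. Its log2 fold change of 0.47 did not pass the test (adjusted p = 0.0784 from edgeR).

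In the list of ERAD and translocon genes, 4 of 17 were called higher and 0 lower (12.7% and 13% of all genes). The list had a median log2 fold change of 0.29. *Derl1*, a channel protein of ERAD, had a log2 fold change of 0.59 (adjusted p = 0.0204 from edgeR) and 0.73 with the length offset (adjusted p = 0.0263 from edgeR). *Spcs2*, a subunit of the signal peptidase, had 0.88 (adjusted p = 0.0135 from edgeR) and 0.36 with the offset (adjusted p = 0.131 from edgeR). Of 9 genes for the processing of ATF6 and related factors, 1 was called higher and 0 lower (12.7% and 13% of all genes). It was *Creb3*, an ER-bound transcription factor, at 0.95 (adjusted p = 0.0213 from edgeR). With the offset 0 were called (3.82% of all genes higher and 3.43% lower), and *Creb3* was at 0.59 (adjusted p = 0.0846 from edgeR).

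Of 22 other targets of ATF4 and CHOP, 2 were called higher and 4 lower (12.7% and 13% of all genes). The median log2 fold change of these targets was 0.03. *Ddit4*, which encodes the mTORC1 inhibitor REDD1, had 69.2 and 92.5 CPM in control and 171, 271 and 185 CPM in irradiated libraries. This rise of 1.37 on the log2 scale (adjusted p = 0.0098 from edgeR) was 1.07 with the length offset (adjusted p = 0.0275 from edgeR). *Eif4ebp1*, a repressor of cap-dependent translation, had 0.96 (adjusted p = 0.0277 from edgeR), which was not called under the offset at 0.59 (adjusted p = 0.117 from edgeR). *Slc7a11*, the cystine transporter gene, had 46.0 and 34.6 CPM in control and 17.9, 9.41 and 11.1 CPM in irradiated libraries, a fall that reached −1.66 (adjusted p = 0.00928 from edgeR) and −0.76 with the offset (adjusted p = 0.0965 from edgeR). *Aldh1l2*, a mitochondrial folate enzyme, fell by 1.09 on the log2 scale (adjusted p = 0.00811 from edgeR), with −0.65 under the offset (adjusted p = 0.0292 from edgeR). *Atf3*, a standard marker of the integrated stress response, had 3.36 and 6.12 CPM in control and 10.7, 9.91 and 8.09 CPM in irradiated libraries, a log2 fold change of 1.01 (adjusted p = 0.051 from edgeR). Its value was 0.66 without control replicate 2 (adjusted p = 0.231 from edgeR) and 1.53 without control replicate 3 (adjusted p = 0.017 from edgeR).

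The 12 aminoacyl-tRNA synthetases, many of them ATF4 targets, included 0 called higher and 3 called lower (12.7% and 13% of all genes). Their median log2 fold change was −0.33 (−0.19 with the length offset). Synthetase transcripts had a median length of 2731 bases. Of all genes with at least 2502 bases, 22.8% were called lower, with a median of −0.29. *Lars* and *Eprs*, which charge the tRNAs of leucine and of glutamate and proline, had −0.79 and −0.82 (adjusted p = 0.0125 and 0.0173 from edgeR), and with the offset −0.48 and −0.31 (adjusted p = 0.0717 and 0.167 from edgeR). All 12 were higher in irradiated replicate 1 than in replicate 2, by a median of 0.35 on the log2 scale, as were the 6 genes of amino acid supply, while 6715 of the 14091 genes tested were.

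Among the 15 genes of eIF2 and its regulators, 2 were called higher and 2 lower (12.7% and 13% of all genes). The median log2 fold change of this list was 0.04. *Nck1*, an adaptor that binds eIF2, and *Eif2b1*, a subunit of the exchange factor eIF2B, had 0.80 and 0.68 (adjusted p = 0.0188 and 0.0341 from edgeR). *Gcn1l1*, the activator of GCN2, and *Eif2ak2*, the kinase PKR, had −1.32 and −0.95 (adjusted p = 0.0162 and 0.023 from edgeR). The controls of *Gcn1l1* were far apart, at 685 and 353 CPM, and without control replicate 2 its difference was −0.74 (adjusted p = 0.104 from edgeR). Under the offset none of these 4 was called, with values of 0.36, 0.35, −0.66 and −0.74 (adjusted p = 0.144, 0.147, 0.0998 and 0.072 from edgeR). Of 14 other enzymes of serine, glycine and folate metabolism, 1 was called higher and 1 lower (12.7% and 13% of all genes). *Gcsh* of the glycine cleavage system was higher at 0.82 (adjusted p = 0.0195 from edgeR). The methionine synthase gene *Mtr* was lower at −1.26 (adjusted p = 0.00811 from edgeR). *Mtr* alone was called with the offset, at −0.67 (adjusted p = 0.0337 from edgeR).

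A share of a gene's TPM does not depend on the scaling between libraries, so the annotated transcripts within each member were also compared. Transcripts of a gene differ in length. The shares were not adjusted for the difference in sampled transcript length between the groups, so that difference was not removed from them. Among 36 transcripts of 18 members with a mean share of 5% to 95% and at least 20 reads on average, the groups did not overlap for 20 (55.6%), against 34.9% of 21648 transcripts of all genes that met the same limits. With 2 libraries against 3 the smallest p of an exact two-sided permutation test is 0.1, so none of these could pass a threshold of 0.05. Shares within a gene sum to a whole, so transcripts of the same gene are not independent. Read numbers above the lower limit were not matched between the members and all genes.

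The main coding transcript *Selenos*-201 carried 63.0% and 59.5% of the gene's TPM in control and 92.5%, 83.1% and 84.4% in irradiated libraries. *Trib3*-201 carried 68.4% and 90.2% in control and at least 97% in each irradiated library. For *Herpud1*, a transcript annotated for nonsense-mediated decay (*Herpud1*-202) had 15.8% and 12.4% in control and 2.19%, 1.61% and 0% in irradiated libraries. The retained-intron transcript *Ddit3*-202 had 20.8% and 10.8% in control and 3.42%, 3.36% and 6.03% in irradiated libraries. The coding transcript *Herpud1*-205 was higher in all irradiated libraries than in both controls, while for *Ddit3*-201 the groups overlapped.

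Other transcripts moved differently. The coding transcript *Nupr1*-201 carried 99.1% and 97.8% in control and 92.2%, 83.8% and 85.9% in irradiated libraries. *Edem1*-205, annotated for nonsense-mediated decay, had 12.7% and 6.49% in control and 13%, 20.8% and 15.3% in irradiated libraries. *Manf*-205, a transcript of 502 bases annotated with a retained intron, carried 39.9% and 36.4% of the gene's TPM in control and 55.5%, 55.0% and 54.3% in irradiated libraries, while the coding transcript *Manf*-201 carried 38.1% and 48.8% in control and 36.0%, 38.0% and 35.5% in irradiated libraries. Transcript *Manf*-205 thus carried more of the *Manf* TPM than *Manf*-201 in all 3 irradiated libraries and in control replicate 2. By estimated reads it lay below *Manf*-201 in every library, with 451 against 932 in irradiated replicate 1. Another coding transcript, *Manf*-202, carried 18.3% and 11.5% in control and 6.21%, 6.65% and 9.44% in irradiated libraries. *Manf* also shares 146 exonic bases with *Dcaf1* on the opposite strand, which had 3337 and 3346 reads in control and 2633, 2024 and 2649 in irradiated libraries.

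**Figure D5:**
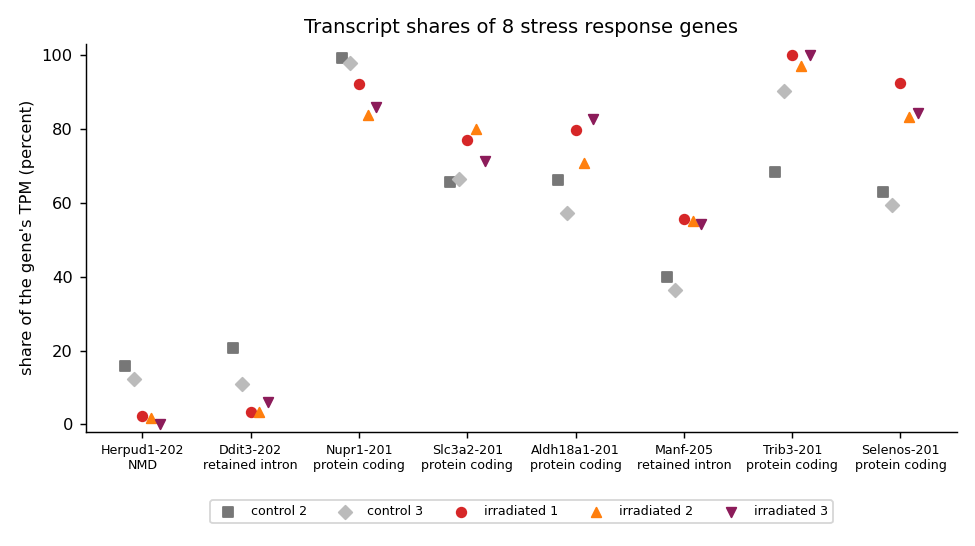
Share of the gene's TPM (percent) carried by the 8 transcripts of members whose groups did not overlap and whose mean share differed by at least 10 percentage points, in each of the 5 libraries, with the annotated type under each name (NMD, nonsense-mediated decay). *Herpud1*-202, *Ddit3*-202 and *Nupr1*-201 are lower in the irradiated libraries than in both controls and the other 5 are higher.

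On the TPM scale, which weights each read by transcript length, the median gene was lower in irradiated cells by 0.31 on the log2 scale and the median member had a log2 ratio of 0.0048. The irradiated libraries lay above both controls in 8 members (15.4% of all genes) and below in 8 (42.7% of all genes). The genes above were *Ddit3*, *Cebpb*, *Ppp1r15a*, *Xbp1*, *Sdf2l1*, *Manf*, *Creld2* and *Selenos*, and those below were *Sesn2*, *Aldh18a1*, *Slc7a1*, *Phgdh*, *Psat1*, *Mthfd2*, *Ern1* and *Atf6*. Relative to the median gene, *Cebpb*, *Nupr1*, *Selenos* and *Manf* stood at 1.56, 1.37, 1.36 and 1.35 and *Slc7a1* at −1.06. For *Nupr1* the groups overlapped.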

How the data were processed

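Bulk RNA sequencing of KP1 cells gave 5 libraries, with groups and numbers taken from the labels. The other samples of the series, single-cell libraries of tumor leukocytes, were not analysed here. The authors quantified reads against mm10 with Salmon (0.8.2 in the submitters' processing notes) and deposited, per transcript, expected counts (estimated reads, not normalized) and TPM, which sums to 1000000 per library. The annotation release and the strandedness are not given in the sources used here. DESeq2 1.22.2, listed in the same notes, made comparisons that were not used.

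Transcripts were matched to GENCODE M21 on GRCm38 (112762 of 113116, 99.69%), and expected counts were summed to 35017 gene symbols and rounded. Libraries held 21185956 to 31036317 reads, which sets counting precision. edgeR 4.0.16 in R 4.3.3 was run on the 14091 genes that passed filterByExpr, with TMM, no covariate and Benjamini-Hochberg adjustment (common dispersion 0.0537). The length offset was a spline of 5 degrees of freedom on log transcript length, fitted per library. Log2 TPM ratios used a pseudocount of 0.1 TPM. The fits were tested on simulated counts. Alternatives were DESeq2 1.42.0, RLE factors, no filter, 2 length offsets, the replicate block, the study's thresholds and each library left out.

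The members and lists were chosen with earlier results of these data known, so no list was tested and no p was adjusted over a list. By rule, called members and the sensors, *Atf4*, *Ddit3*, *Xbp1* and *Atf6* were given in every library, and each list by its 2 smallest p values per direction, with *Hspa5* and *Atf3* added. Library values for a few other members were printed to show overlap. Sequences came from RefSeq (GRCm38.p6) and motifs were matched on both strands. Tables and plots used matplotlib 3.10.9, scipy 1.17.1, pandas 2.3.3 and numpy 2.4.6 in Python 3.11.15.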

Additional observations from a re-analysis of the deposited data

How the results depend on the processing

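Counts of genes called higher and lower are given in that order, for all genes (1792 and 1834), for the members (8 and 1) and for the other pathway genes (15 and 10). With the transcript length offset they were 538 and 484, 3 and 0, and 5 and 2. With the replicate block, which pairs only the numbers 2 and 3 and gives irradiated replicate 1 no weight, they were 585 and 480, 4 and 0, and 3 and 3; with the replicate block and the length offset together they were 0 and 2, 0 and 0, and 0 and 0, where 6 members were higher and 1 lower at an unadjusted p under 0.05 in edgeR (1376 and 1103 of all genes). Across genes the ratio of number 2 to number 3 correlated at −0.201 between the groups, and the sources used here do not say that the numbers mark shared cultures. A replicate block with numbers 2 and 3 crossed, chosen after seeing the data, gave 3043 genes higher, 14 and 6 members, and 27 and 19 other pathway genes. At the study's thresholds, applied to the edgeR fit, the counts were 232 and 268, 2 and 0, and 1 and 1. DESeq2 called 12 members higher (also *Eif2ak3*, *Atf4*, *Herpud1* and *Creld2*) and 2 lower (also *Aldh18a1*). It called 23 other pathway genes higher, and of all genes 2406 higher and 2290 lower. The effective length offset gave 2 members lower, with 1401 of all genes lower. No filter on low counts gave 14 members higher, with 2539 of all genes higher.

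Leaving out 1 library gave 97 to 2251 and 179 to 1994 for all genes, 0 to 10 and 0 to 1 for the members, and 0 to 15 and 2 to 10 for the other pathway genes, with the lowest counts without control replicate 2, where the 1 control left is assumed to vary like the other libraries. The 9 called members kept their direction in all 13 alternatives with a value, from 11 kept calls for *Selenos* and 10 each for *Cebpb* and *Sdf2l1* to 6 each for *Trib3* and *Xbp1*. Members that were not called changed sign as follows. With the transcript length offset the log2 fold changes were 0.39 (*Eif2ak4*), −0.24 (*Asns*), −0.0049 (*Pycr1*), 0.13 (*Slc7a5*), −0.07 (*Psph*), 0.15 (*Ern1*) and 0.45 (*Atf6*). With the replicate block and that offset they were 0.42 (*Eif2ak4*), −0.14 (*Chac1*), −0.44 (*Asns*), −0.19 (*Pycr1*), −0.01 (*Slc3a2*), −0.07 (*Psph*), −0.03 (*Shmt2*), 0.02 (*Ern1*) and 0.38 (*Atf6*). With 1 library left out, the values crossed 0 for *Eif2ak4* (−0.33 to 0.14), *Cebpg* (−0.0027 to 0.26), *Asns* (−0.21 to 0.17), *Slc7a5* (−0.36 to 0.07), *Psat1* (−0.15 to 0.09), *Shmt2* (−0.03 to 0.51), *Edem1* (−0.10 to 0.22) and *Pdia4* (−0.47 to 0.08). *Asns* was also at −0.01 with DESeq2 and with RLE normalization and at −0.20 with the replicate block, crossed or not, *Psat1* at 0.02 with no filter, and *Edem1* at −0.04 with the effective length offset. Their adjusted p values ran above 0.05 in each of these fits. The cause was not tested. The lowest read number of a member in a control library was 119, for *Nupr1*, and depth did not limit detection of any member.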
